A study of Homo sapiens with 4 samples.

Results

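The 10 mouse genes described here encode enzymes that hydroxylate collagen chains or cross-link finished collagen: the lysyl oxidases Lox, Loxl1, Loxl2, Loxl3 and Loxl4, the prolyl 4-hydroxylase alpha subunits P4ha1 and P4ha2, and the lysyl hydroxylases Plod1, Plod2 and Plod3. They were taken by name, from the mouse genes of both deposited count matrices, and are 10 of the 32285 mouse genes named there. Each was read in mouse barcodes, meaning barcodes with at least 90% of their gene counts on mouse genes. All 10 had at least 100 unique molecular identifiers (UMIs, counts of single captured transcripts) over the mouse cells.

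Collagen chains are modified while they are still being folded inside the cell. Prolyl 4-hydroxylase, a complex of an alpha subunit with protein disulfide isomerase, hydroxylates prolines that hold the triple helix together, and lysyl hydroxylases act on lysines that later carry sugars or enter cross-links. Once collagen or elastin has been secreted, lysyl oxidases oxidise lysine side chains so that neighbouring molecules become covalently joined, which stiffens the matrix.

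The aged pool came from human MCF10DCIS.com breast cells, a line that forms lesions like ductal carcinoma in situ, seeded on decellularized extracellular matrix (dECM) of mammary glands from mice aged 18 months or more. The young pool came from the same line on dECM of mice aged 2 to 3 months. In both pools the seeded matrix was kept in culture for 12 days, put into mammary fat pads (left or right side) of Rag1-/- recipients, which form no mature B or T cells, and collected after 4 weeks as tumour with adjacent stroma, from which dead cells were removed. Age therefore refers to the donor of the matrix, and the mouse cells read here belong to the recipients, whose age the labels do not give. Each pool is 1 gene expression library made with the 10x 3' assay, and the number of animals in each is not given in the labels, so values carry counting intervals (95%, exact) and no test between pools was possible. Those intervals cover counting error only.

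After filters 12924 mouse cells remained in the aged pool and 11946 in the young pool, with medians of 2261 and 2286 UMIs per cell. They fell into 30 clusters, made from both pools together without the 10 enzymes and without any collagen gene, so enzyme and collagen values did not shape the clusters. In all, 143 cell barcodes occurred among the mouse cells of both pools. Neutrophil-like cells made up most of both pools (9882 aged and 9546 young cells). Free RNA was present: transcripts of Col1a1, Col1a2 and Col3a1, the main fibrillar collagen genes, summed to 212 CPM (counts per 1000000 mouse UMIs) in neutrophil-like cells of the aged pool and 107 CPM in those of the young pool. Mouse UMIs caught in human barcodes held Lox at 52.6 CPM in the aged pool and 23.9 CPM in the young pool, and P4ha1 at 205 and 212 CPM.

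Fibroblast markers defined several clusters. Cluster 12 (278 aged and 173 young cells, led by Tnxb, Sema3c and Dpt), cluster 18 (149 and 48 cells, led by Cpxm1, Lpl and Cxcl12), cluster 20 (71 and 54 cells in cycle) and cluster 14 (215 and 231 cells, led by Hmga2, Grem1 and Il11, with 8 of 14 fibroblast markers) were fibroblast-like. Cluster 11 (344 and 170 cells) also had 13 of 14 fibroblast markers, but the smooth muscle actin gene Actg2 stood among its leading genes, and it was left unnamed and is given by number. All 6 smooth muscle markers reached 20 CPM there, with a sum of 4271 CPM in the aged pool and 6157 CPM in the young pool. Cluster 24 (34 and 23 cells) had 7 fibroblast markers and was also left unnamed.

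Lysyl oxidase transcripts were concentrated in the fibroblast-marker clusters, and each gene had its own order among them. Lox, which acts on both collagen and elastin, was highest in cluster 11, at 861 CPM (840.3 to 882) in the aged pool and 799 CPM (770.0 to 828) in the young pool. In cluster 12 Lox had 531 CPM in the aged pool and 357 CPM in the young pool. Clusters 20 and 18 did not differ beyond counting error, with 433 and 419 CPM in the aged pool and 431 and 421 CPM in the young pool. Cluster 14 was lowest of the 5, with 242 CPM in the aged pool and 215 CPM in the young pool. In both pools the interval of cluster 11 lay above those of all other clusters. That position depended on how the clusters were drawn: with all variable genes used, 49.8% of the cells of cluster 11 fell into a cluster that also took 96.6% of cluster 14, and Lox was at 269 CPM there, both pools summed, against 822 CPM in the cluster that held most of cluster 18.

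Loxl1, which is needed in mice for the upkeep of elastic fibres, had a different order. It was highest in cluster 12, at 810.1 CPM (786 to 835) in the aged pool and 805 CPM (774 to 837) in the young pool, and 277 of the 278 aged and all 173 young cells there had at least 1 UMI of it. Cluster 18 followed with 619 CPM in the aged pool and 612 CPM in the young pool. Cluster 11, first for Lox, had 362 CPM of Loxl1 in the aged pool and 386 CPM in the young pool. Clusters 20 (248 aged and 295 CPM young) and 14 (182 aged and 183 CPM young) came last.

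Loxl2, which cross-links the collagen IV of basement membranes, was also present in vessel-associated cells. The fibroblast-marker clusters ranged from 210.5 CPM in cluster 14 to 422 CPM in cluster 12 in the aged pool, and from 157 CPM in cluster 14 to 509.6 CPM in cluster 11 in the young pool. Pericyte-like cells, the contractile cells around small vessels, had 400.1 CPM (348 to 458) in 36 aged cells and 579.9 CPM (481 to 693) in 15 young cells. Their Lox was at 119 CPM in the aged pool and 82.2 CPM in the young pool. Cluster 28, an unnamed set of 19 aged and 27 young cells led by the lymphatic endothelial genes Ccl21a, Lyve1 and Prox1, had 129 CPM of Loxl2 in the aged pool and 97.7 CPM in the young pool. Endothelial-like cells of cluster 16 had 19.1 and 9.38 CPM.

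Loxl3, a lysyl oxidase required in mice for palate and spine formation, followed a different set of fibroblast-marker clusters. Cluster 14 had 156 CPM in the aged pool and 148 CPM in the young pool, cluster 20 had 150.4 and 120.0 CPM, and cluster 11 had 139 and 132 CPM. Clusters 12 and 18, first for Loxl1, had only 45.0 and 42.1 CPM of Loxl3 in the aged pool and 55.4 and 36.2 CPM in the young pool. Clusters 12 and 18 did not differ from each other beyond counting error in the aged pool. Loxl4, the remaining member of the family, stayed at or below 15.8 CPM in all 30 clusters of both pools, and was highest in cluster 12 (15.8 CPM aged, 15.6 CPM young).

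**Figure D1:**
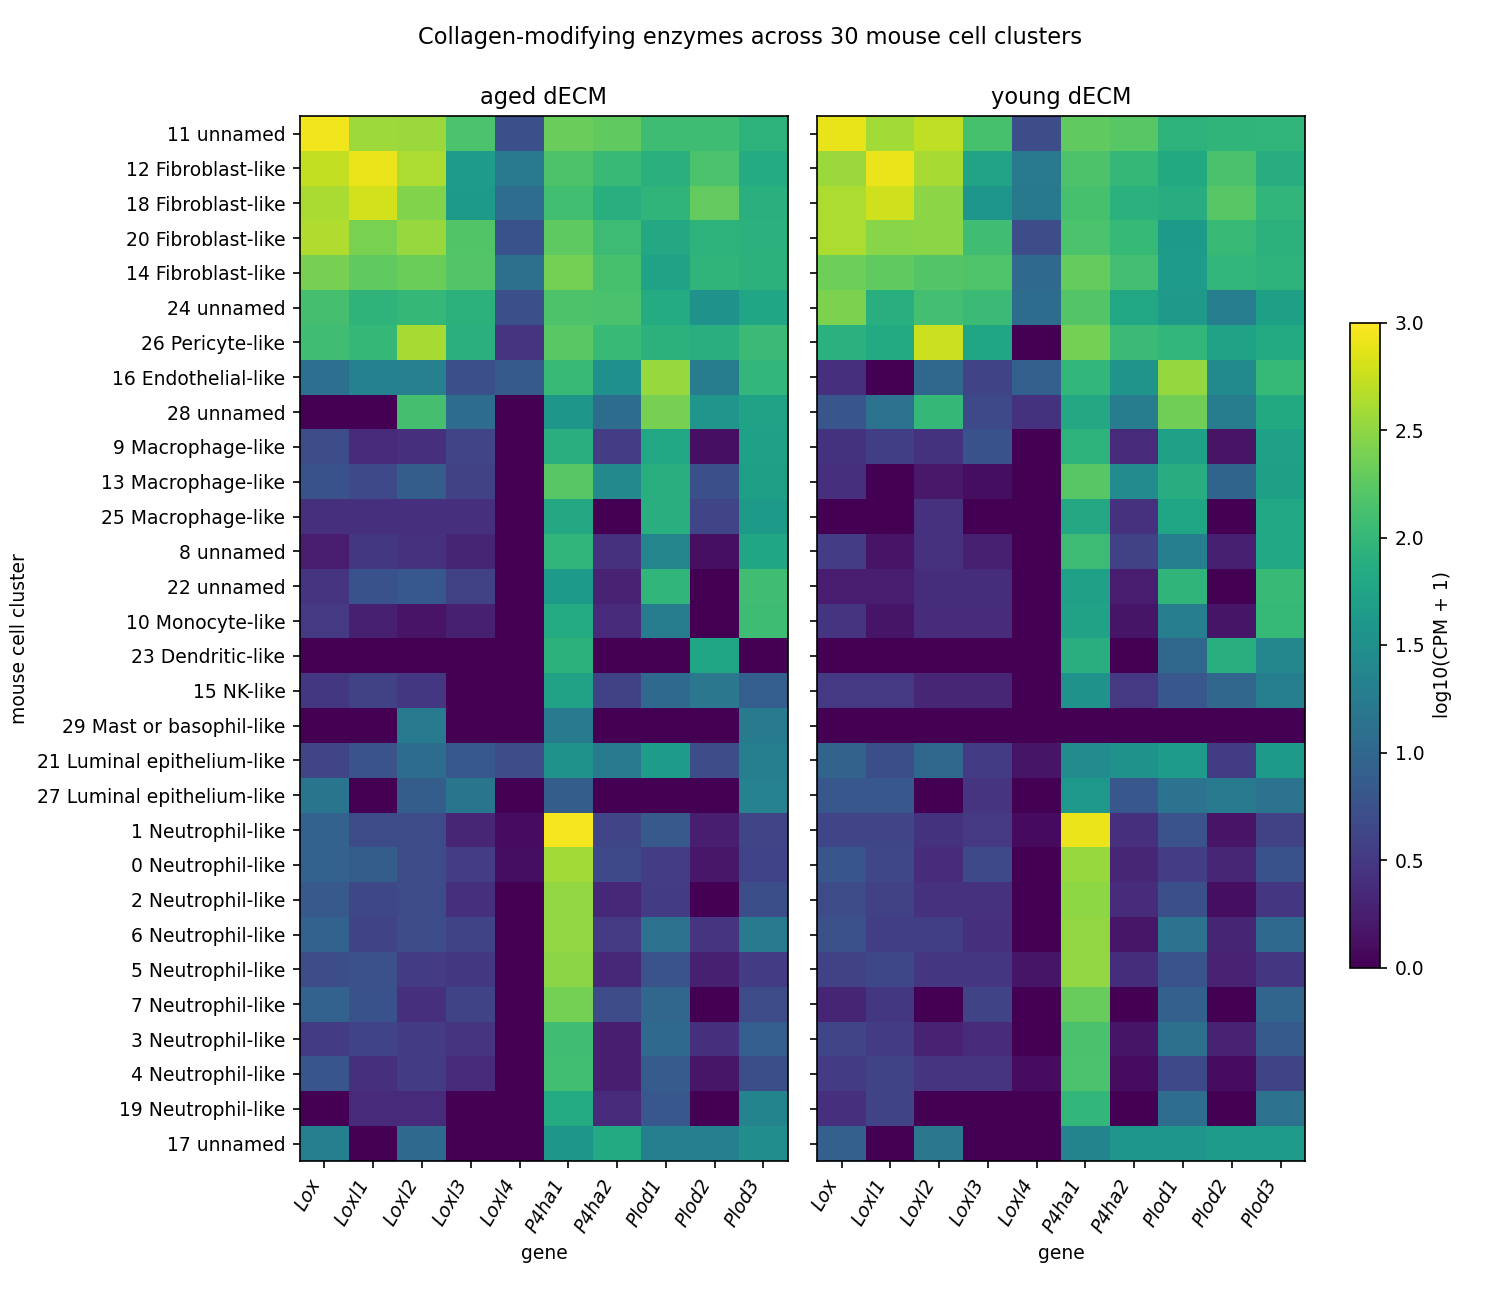
Level of each of the 10 enzymes in each of the 30 mouse cell clusters, as log10 of CPM + 1 (colour), with the aged pool on the left and the young pool on the right. The Lox family columns other than Loxl4 are bright in the fibroblast-marker rows at the top. P4ha1 is brightest in neutrophil-like cluster 1, and Plod1 is brightest in cluster 16 (344 CPM aged, 336 CPM young).

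The prolyl hydroxylase subunits split in their distribution. P4ha2, one alternative catalytic subunit, followed the fibroblast-marker clusters: cluster 11 had 182 CPM in the aged pool and 164 CPM in the young pool, cluster 14 had 133 and 126 CPM, and cluster 12 had 104 and 98.3 CPM. Pericyte-like cells had 106 and 111 CPM. Outside the stroma P4ha2 reached 31.1 CPM in aged and 34.9 CPM in young endothelial-like cells, and 24.8 and 27.1 CPM in macrophage-like cluster 13, led by Arg1 and Mmp12. The C1q-rich macrophage-like cluster 9 had 2.55 and 1.29 CPM, which lies in the range of neutrophil-like cells (2.05 and 0.944 CPM).

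P4ha1, the other catalytic subunit and a known target of hypoxia-inducible factor, was highest outside the fibroblasts. Neutrophil-like cluster 1 had 918 CPM (888 to 950) in 1923 aged cells and 809 CPM (783 to 836) in 2033 young cells. The other neutrophil-like clusters ranged down to 69.3 CPM in the aged pool and 96.9 CPM in the young pool, both in cluster 19. Cluster 1 was led by Ccdc126, Cd274, Ciart, Hilpda and Ero1l, and from the hypoxia list it had Ldha, which encodes lactate dehydrogenase, at 3364 CPM in the aged pool and 3216 CPM in the young pool. Ero1l, which encodes an endoplasmic reticulum oxidase, had 2409 CPM in the aged and 2552 CPM in the young cells of the same cluster. The partner subunit gene P4hb was also high there, at 1619 CPM in the aged pool and 1629 CPM in the young pool, against 583 and 563 CPM in fibroblast-like cells. High P4hb was not particular to cluster 1. P4hb led a list of 16 other collagen folding and modification genes in all neutrophil-like cells, where the list summed to 1213 and 1242 CPM. It also led that list in macrophage-like cells (1317 and 1422 CPM). In contrast Serpinh1, which encodes the collagen chaperone HSP47, was at 16.99 and 6.53 CPM in cluster 1. Ldha and Ero1l are only part of the 18 genes of the hypoxia list found in the matrices. That list was not compared between the neutrophil-like clusters.

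P4ha1 was also present in the stroma, in macrophages and in endothelium. Cluster 14 had 233 CPM in the aged pool and 195 CPM in the young pool, cluster 11 had 204 and 184 CPM, and cluster 12 had 143 CPM in both. Macrophage-like cluster 13 had 167 CPM in the aged pool and 164 CPM in the young pool, above the 78.1 and 85.3 CPM of macrophage-like cluster 9. Endothelial-like cells had 108 CPM in the aged pool and 96.4 CPM in the young pool. Of these values only the 233 CPM of cluster 14 in the aged pool lay above the share of P4ha1 in the free mouse RNA of human barcodes (205 CPM aged, 212 CPM young), and the part of free RNA in them was not tested. After each cell was thinned to 2000 UMIs, 34.9% of the 4759 aged and 37.1% of the 4928 young neutrophil-like cells deep enough had a P4ha1 UMI, against 0.967% and 0.548% with a Lox UMI. Thinning left out 5123 aged and 4618 young neutrophil-like cells. Without thinning the shares with P4ha1 were 40.0% and 42.1%.

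Among the lysyl hydroxylases, Plod1, which modifies lysines within the helix, was highest in endothelial cells. Cluster 16 had 344 CPM (318 to 372) in the aged pool and 336 CPM (311 to 363) in the young pool, and cluster 28 had 241 and 224 CPM. Every one of the 11 endothelial markers reached 20 CPM in cluster 16 in both pools. The fibroblast-marker clusters 11, 12, 18, 20 and 14 had 117, 78.3, 91.7, 63.6 and 52.0 CPM in the aged pool and 85.2, 65.6, 72.5, 42.3 and 43.0 CPM in the young pool. Cluster 22, an unnamed set of 38 aged and 50 young cells led by the osteoclast genes Acp5 and Ctsk, had 93.5 and 91.9 CPM, and macrophage-like cells had 68.7 and 63.2 CPM. Neutrophil-like cells were at 6.12 and 5.79 CPM.

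Plod2, which hydroxylates lysines in the collagen telopeptides that form the most stable cross-links, was highest in cluster 18, at 192 CPM (175 to 210) in the aged pool and 164 CPM (136 to 197) in the young pool. Cluster 12 had 139 CPM in the aged pool and 137 CPM in the young pool, and cluster 11 had 115 and 91.2 CPM. The intervals of clusters 18 and 12 overlapped in the young pool and not in the aged pool. Endothelial-like cells had 17.4 and 26.6 CPM, and macrophage-like cells 2.23 and 4.55 CPM. Outside the stroma the highest level in both pools was that of the dendritic-like cluster 23, led by Klk1 and Siglech, with 12 UMIs in 30 aged cells and 16 UMIs in 32 young cells (59.0 and 74.4 CPM).

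Plod3, a lysyl hydroxylase that also adds sugars to hydroxylysine, differed little between the stromal clusters. The fibroblast-marker clusters 11, 12, 18, 20 and 14 ranged from 69.98 to 85.9 CPM in the aged pool and from 72.8 to 93.4 CPM in the young pool. Endothelial-like cells had 96.4 CPM in the aged pool and 102 CPM in the young pool, monocyte-like cells 115 and 102 CPM, and cluster 22 had 119 and 107 CPM. Macrophage-like cells had 49.3 and 51.2 CPM, and neutrophil-like cells 5.72 and 4.33 CPM.

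**Figure D2:**
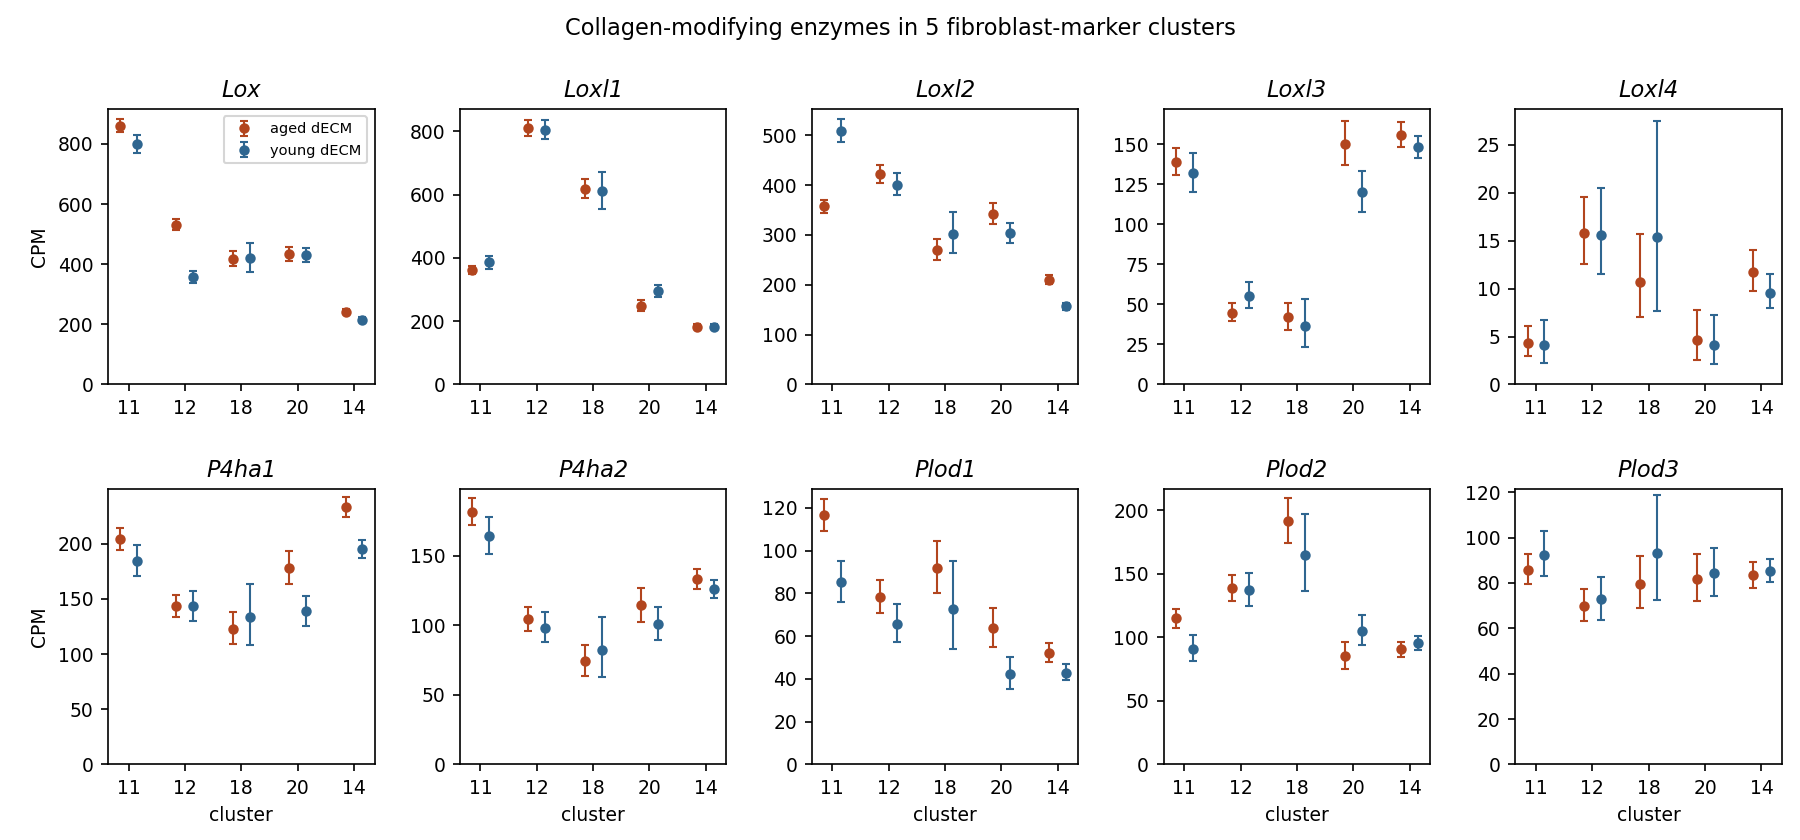
CPM of each enzyme (vertical axis, from 0) in the fibroblast-marker clusters 11, 12, 18, 20 and 14 (horizontal axis), aged pool left in red and young pool right in blue, with exact Poisson 95% intervals. Lox is highest in cluster 11, Loxl1 in clusters 12 and 18, Loxl3 in clusters 11, 20 and 14, and Plod2 in cluster 18.

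Macrophage-like cells (587 aged and 536 young cells, with all 12 macrophage markers at 20 CPM or more) were measured for P4ha1, Plod1 and Plod3, and their lysyl oxidases were near the level in neutrophil-like cells. Lox had 3.97 CPM in the aged and 1.46 CPM in the young macrophage-like cells, against 5.90 and 3.47 CPM in neutrophil-like cells. Loxl2 had 3.66 and 1.14 CPM against 3.15 and 1.59 CPM. No Loxl4 UMI was found among 6289904 aged and 6153581 young UMIs of these cells, which allows up to 0.477 and 0.488 CPM (3 counts). After thinning to 2000 UMIs, 0.54% of 556 aged and 0.39% of 513 young macrophage-like cells had a Lox UMI, against 0.967% and 0.548% of neutrophil-like cells, a share to be read as background. P4ha1 was found in 20.3% and 21.6% of the thinned macrophage-like cells, and Plod1 in 10.4% and 10.9%.

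Fibroblast-like cells gave the opposite picture after the same thinning. Of 711 aged and 506 young cells, 58.8% and 50.8% had a Loxl1 UMI, 43.0% and 37.9% a Lox UMI, and 39.7% and 36.6% a Loxl2 UMI. Without thinning, at medians of 22442 and 28951 UMIs per cell, these shares were 96.5% and 97.6% for Loxl1, 88.1% and 90.5% for Lox, and 94.5% and 95.3% for Loxl2. In endothelial-like cells thinning left Plod1 in 48.7% of 117 aged and 43.8% of 121 young cells.

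Enzyme levels were then set beside the collagens they act on. Clusters 11, 12 and 18 had the most fibrillar collagen, with Col1a1, Col1a2 and Col3a1 summing to 33821.5, 44220.3 and 34961 CPM in the aged pool and 32707, 34406 and 36448 CPM in the young pool. Cluster 14 had 3554 CPM in the aged pool and 2822 CPM in the young pool. Its 10 enzymes still summed to 1395 CPM in the aged pool and 1257 CPM in the young pool, compared with 2426 and 2448 CPM in cluster 11. Per 100 fibrillar collagen UMIs cluster 14 thus had 39.3 enzyme UMIs (38.5 to 40.0) in the aged pool and 44.5 (43.7 to 45.4) in the young pool. The same ratio was 7.17 and 7.48 in cluster 11, 5.33 and 6.25 in cluster 12, and 5.49 and 5.31 in cluster 18.

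Endothelial-like cells made a different collagen. Their 5 measured basement membrane and network collagen genes, led by Col4a1, Col4a2 and Col18a1, brought the list to 10242 CPM in the aged pool and 10578 CPM in the young pool. Their 3 lysyl hydroxylases summed to 458 CPM in the aged pool and 465 CPM in the young pool, and their lysyl oxidases to 60.5 and 21.4 CPM. Serpinh1 reached 1173 CPM in aged and 1229 CPM in young endothelial-like cells, close to the 1223 and 1012 CPM of fibroblast-like cells.

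Across the 24 named clusters, both pools summed, the 10 genes differed in how closely they followed the fibrillar collagens (Pearson r of log2(CPM + 10), a description with no p, since the clusters share libraries and free RNA). The coefficient was 0.97 for Loxl1, 0.96 for Lox and Loxl2, 0.88 for Loxl3, 0.87 for P4ha2 and 0.84 for Loxl4 and Plod2. It was 0.55 for Plod3, 0.52 for Plod1 and 0.25 for P4ha1. Among the 20 named clusters that were not fibroblast-like, the coefficient was 0.92 for Loxl1, 0.91 for Loxl2, 0.90 for Lox, 0.89 for Loxl3 and 0.74 for P4ha2. It was 0.48 for Plod2, 0.43 for Loxl4, 0.36 for Plod1, 0.34 for P4ha1 and 0.27 for Plod3. For all 10 genes summed it was 0.86 over 24 clusters and 0.68 over those 20. Of those 20, the pericyte-like cluster had by far the most fibrillar collagen, at 10894 CPM, with lysyl oxidases at 725 CPM, both pools summed. The endothelial-like cluster came next, with 489 and 40.5 CPM. The coefficients were not computed without the pericyte-like cluster, so whether they hold outside the stroma was not tested. The order of the genes depended on the coefficient. By Spearman rho over the 24 clusters Loxl1 had 0.80, Lox 0.75 and P4ha1 0.56. Plod2 had 0.43, Plod1 0.30 and Plod3 0.17. By Spearman rho over the 20 clusters Loxl1 and P4ha1 had 0.65 each, Lox 0.57, Loxl3 0.51 and Plod3 -0.28.

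**Figure D3:**
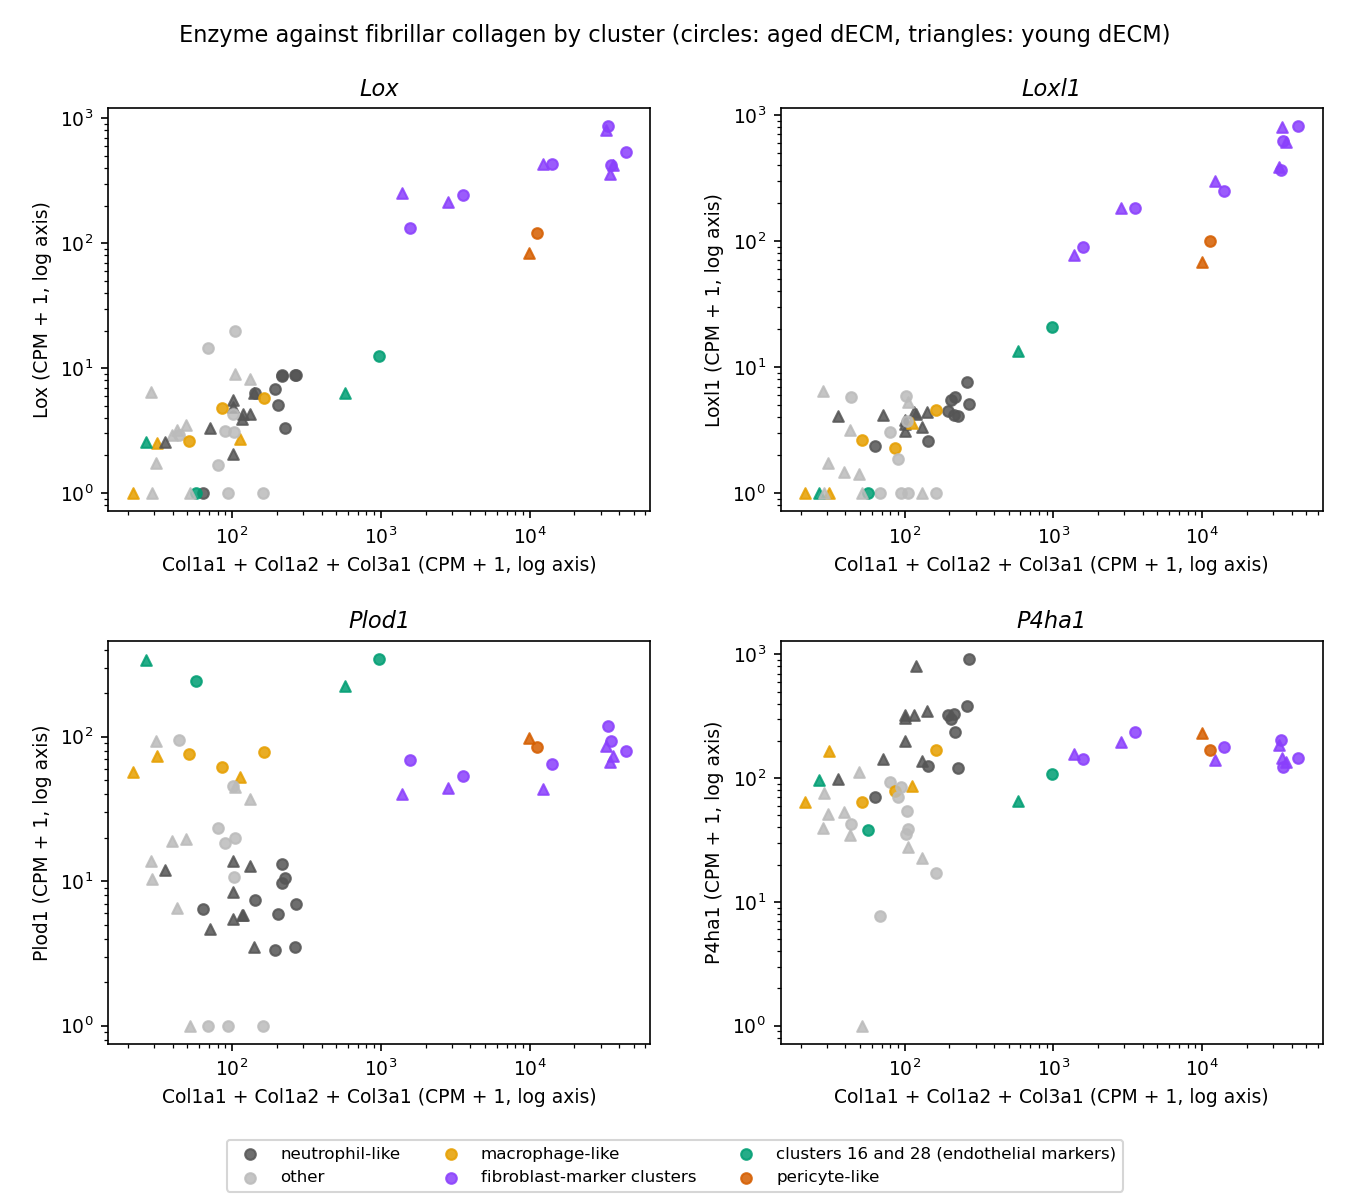
Level of Lox, Loxl1, Plod1 and P4ha1 (vertical axes, CPM + 1) against the summed level of Col1a1, Col1a2 and Col3a1 (horizontal axes, CPM + 1) in each of 30 clusters, log axes, circles for the aged pool and triangles for the young pool. Lox and Loxl1 climb with collagen, whereas Plod1 is highest in cluster 16 and P4ha1 in neutrophil-like cluster 1 at low collagen.

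The same link was read from cell to cell within clusters, over cells with at least 10000 UMIs. In cluster 14 the per-cell Spearman coefficient with fibrillar collagen was highest for Loxl2, at 0.59 over 205 aged cells and 0.57 over 226 young cells. Lox had 0.38 and 0.42 there, and P4ha1 0.15 and 0.07. In cluster 12 Lox had 0.54 over 246 aged and 0.39 over 151 young cells, but its coefficient with the cell's depth was 0.41 and 0.40. In cluster 11 Loxl1 had 0.34 over 295 aged and 0.38 over 140 young cells, while Loxl2 was near 0 (-0.04 and 0.08). These cells share libraries, and the coefficients describe them without a test.

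The genes whose cluster pattern was most like each enzyme were sought among 10606 genes over the 27 clusters with at least 50 cells. Lox was nearest to Mrc2, which encodes a receptor that takes up collagen (r = 0.99), then Mmp23 and Gpr153. Loxl1 was nearest to Mmp23, Dclk1 and Mrc2 (r = 0.99 each), and Loxl2 to Col5a3, a collagen V chain (r = 0.99), Lhfp and Col5a2. Loxl3 was nearest to Dact3 (r = 0.99), with the proteoglycan gene Bgn and the mesenchymal transcription factor gene Prrx1 next, and Loxl4, at 529 UMIs in all, to Dpysl3 (r = 0.95), Vldlr and Pdgfd. P4ha1 was nearest to its partner subunit gene P4hb (r = 0.91), then to Bnip3, a mitophagy gene induced by hypoxia (r = 0.88), and Dubr. P4ha2 was nearest to Uggt2, Parva and Palld (r = 0.97 each). Plod1 and Plod3 shared Tax1bp3 as nearest gene (r = 0.94 each), followed by Cd276 and Apbb2 for Plod1 and by Sh3bgrl and Anxa5 for Plod3, and Plod2 was nearest to the disulfide isomerase gene Pdia5 (r = 0.94), Nbl1 and B3gnt9.

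The pools were then compared within each cell type. A gene counted as measured in a class when the pools together held 100 UMIs or more of it and 1 of them reached 20 CPM, and it stood apart at 1.5-fold or more either way. The labels do not tie cells to animals, so the spread between animals is unknown. In fibroblast-like cells (713 aged and 506 young) 9 of the 10 genes were measured, Loxl4 being the exception, and 0 stood apart, where 5.32% of all 5955 measured genes did. The median log2 ratio of aged over young was 0.11 for the 9 genes and -0.03 for all measured genes. In cluster 11, cluster 12 and cluster 14 the same 9 were measured and 0 stood apart, against 3.92%, 2.33% and 1.14% of all measured genes. The count was also 0 of 3 in macrophage-like cells (1.57% of all measured genes), 0 of 4 in endothelial-like cells (4.62%) and 0 of 1 in neutrophil-like cells (0.583%). With so few members a count of 0 is near these background shares.

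The sizes behind those counts were small but not nil in fibroblast-like cells. Plod1 had 64.9 CPM in the aged pool and 47.8 CPM in the young pool (ratio 1.36, 1.25 to 1.48). Its ratio was above 1 in all 5 fibroblast-marker clusters: 1.37 in cluster 11, 1.19 in cluster 12, 1.26 in cluster 18, 1.504 in cluster 20 and 1.21 in cluster 14. The interval reached below 1 only in cluster 18 (0.931 to 1.75). The ratio in cluster 20 was past 1.5-fold. That cluster, with 71 aged and 54 young cells, was not among the counts above, which needed at least 100 cells per pool. In endothelial-like cells, where Plod1 was highest, the ratio was 1.02 (0.915 to 1.14).

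Lox had 363 CPM in aged and 279 CPM in young fibroblast-like cells (ratio 1.30, 1.26 to 1.35), Loxl1 had 401 and 320 CPM (1.25, 1.21 to 1.30) and Loxl2 had 290.0 and 226 CPM (1.29, 1.24 to 1.34). Within clusters Loxl1 had ratios of 1.01 in cluster 12, 1.01 in cluster 18 and 0.998 in cluster 14, and 0.840 (0.761 to 0.928) in cluster 20. The pools differed in how the class was made up: cluster 14, lowest in all 3 genes, held 48.7% of the class's UMIs in the aged pool and 64.3% in the young pool, and cluster 12 held the most cells in the aged pool (39.0%) and cluster 14 in the young pool (45.7%). The part of this make-up in the class ratio was not tested. When every cell was weighted equally the log2 ratio of Loxl2 was 0.17 in place of 0.36.

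Lox in cluster 12 was the measured enzyme ratio nearest below 1.5-fold in clusters with at least 100 cells per pool. It had 531 CPM (512 to 551) in the aged pool and 357 CPM (337 to 379) in the young pool, a ratio of 1.49 (1.39 to 1.59), with at most 3.57% of its UMIs in any 1 cell. The fibrillar collagens of cluster 12 were also higher in the aged pool, with Col1a1 at 9208 and 6763 CPM and Col3a1 at 23206.5 and 18963 CPM. Clusters 18 and 20 had Lox ratios of 0.995 and 1.01, and clusters 11 and 14 of 1.08 and 1.13.

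Loxl2 ran in opposite directions in clusters 11 and 14. In cluster 11 it had 357 CPM (344 to 371) in the aged pool and 509.6 CPM (487 to 533) in the young pool, a ratio of 0.701 (0.661 to 0.744). In cluster 14 it had 210.5 CPM (202 to 219.6) in the aged pool and 157 CPM (149.98 to 164) in the young pool, a ratio of 1.34 (1.26 to 1.43). The smooth muscle actin gene Acta2 moved with it, at 1710.3 CPM in aged and 2400.3 CPM in young cells of cluster 11, and at 682 and 394 CPM in cluster 14. Smooth muscle markers summed to 1428 CPM in aged and 876 CPM in young cells of cluster 14. In cluster 12 they summed to 36.1 CPM in aged and 103 CPM in young cells, whereas Loxl2 was not lower in the aged cells there. Neutrophil markers summed to 4014 CPM in aged and 5842 CPM in young cells of cluster 11. The part of these markers in the Loxl2 values was not tested. When each pool was clustered alone, the clusters holding most of cluster 11 had 367 CPM of Loxl2 in the aged pool and 549 CPM in the young pool. With all variable genes, and at Leiden resolution 0.5, 49.8% and 64.4% of the cells of cluster 11 fell into the cluster that took most of cluster 14, with 253.5 and 258 CPM of Loxl2 over both pools, so the opposite directions could not be read there.

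P4ha1 stayed within 1.5-fold in each named class where it was measured, apart from NK-like cells. The ratio was 1.20 (1.13 to 1.27) in cluster 14, 1.28 (1.13 to 1.46) in cluster 20, 0.902 (0.813 to 1.0001) in macrophage-like cells and 0.989 (0.959 to 1.02) in neutrophil-like cells. NK-like cells had 53.1 CPM, from 77 UMIs in 247 aged cells, and 34.0 CPM, from 31 UMIs in 143 young cells. That was 1 of 1 measured enzyme past 1.5-fold there (1.56, 1.02 to 2.46), where 4.3% of all measured genes were. P4ha2, Plod2 and Plod3 had ratios of 1.004, 1.07 and 0.951 in fibroblast-like cells.

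**Figure D4:**
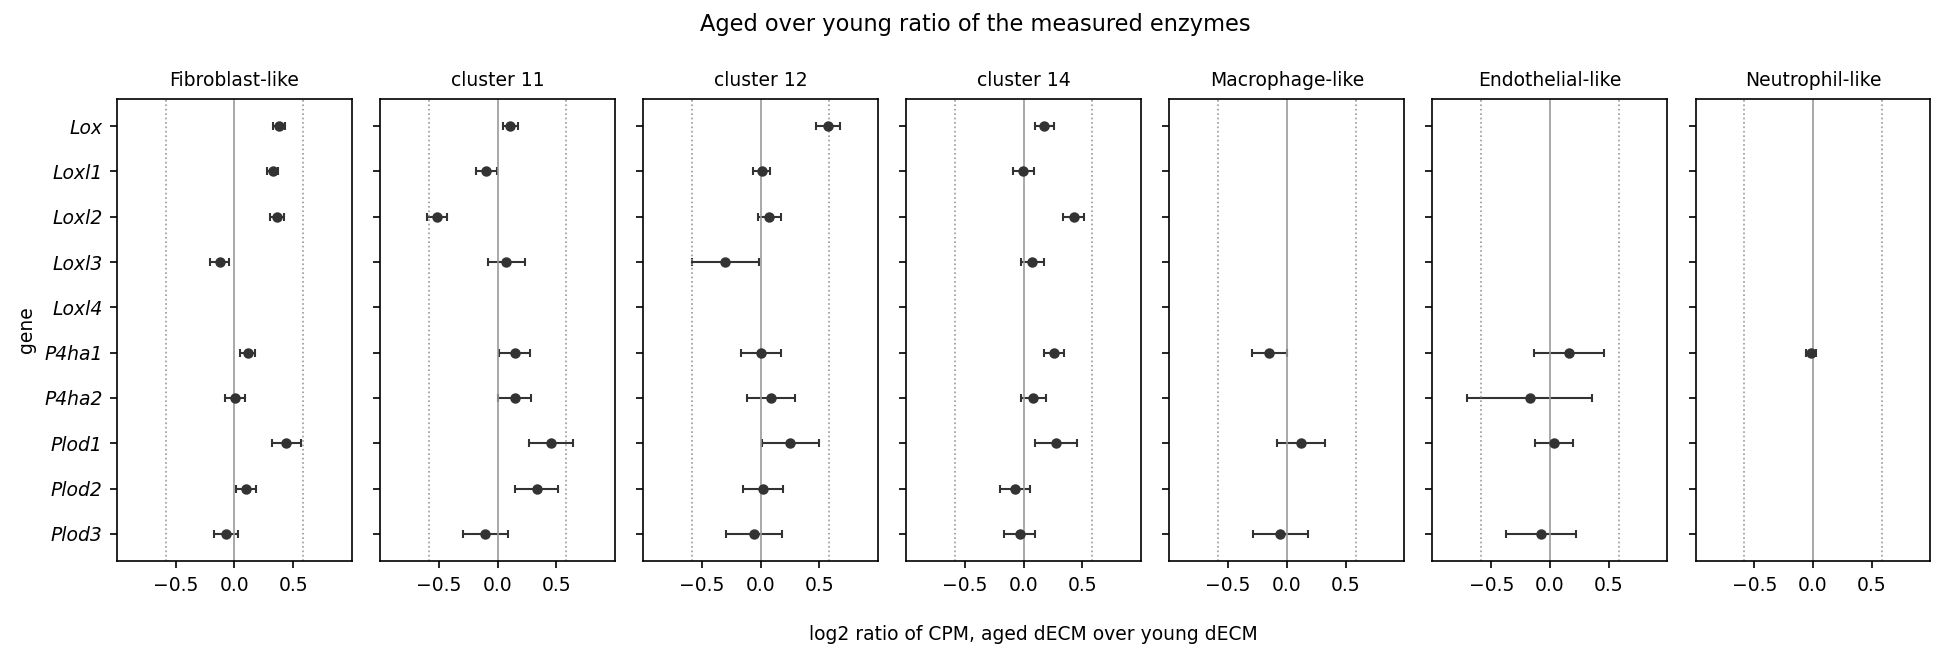
Log2 ratio of CPM, aged over young (horizontal axis), for each measured enzyme (rows) in the fibroblast-like class, clusters 11, 12 and 14, and macrophage-like, endothelial-like and neutrophil-like cells, with exact 95% counting intervals and dotted lines at 1.5-fold either way. Lox in cluster 12 (ratio 1.49) lies nearest to the dotted line on the right and Loxl2 in cluster 11 (0.701) nearest to the one on the left.

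In endothelial-like cells Loxl1, Lox and Loxl2 had more UMIs in the aged pool, where fibroblast transcripts were also higher. Loxl1 had 36 UMIs (19.6 CPM) in the aged pool, 11 of them in 1 cell. It had 0 UMIs in the young pool, which allows up to 1.56 CPM (3 counts). The aged level was 12.5-fold that limit, a value that leaves out the counting error of the 36 UMIs. Lox had 21 UMIs in the aged pool and 3 in the young pool, and 13 of the 21 were in 1 cell. Loxl2 had 35 and 18 UMIs, of which 14 and 9 were in 1 cell of each pool. The other low members did not share that direction beyond counting error: Loxl3 had 8 UMIs in the aged pool and 6 in the young pool, Loxl4 11 and 14, and Plod2 32 and 51. Col1a1 had 379 CPM in the aged pool and 8.34 CPM in the young pool, and of the 14 fibroblast markers 9 reached 20 CPM in the aged pool and 1 in the young pool, summing to 508 and 99.1 CPM. The part of fibroblast RNA in these values was not tested. Plod1, Plod3, P4ha1 and P4ha2, the 4 measured members, had ratios from 0.889 to 1.12.

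Over all mouse cells together Lox was the only measured enzyme of 9 past 1.5-fold (3.06% of all measured genes were), with 207 CPM in the aged pool and 131 CPM in the young pool (1.58, 1.54 to 1.63). Cluster 11, where Lox is highest, made up 2.66% of the aged and 1.42% of the young mouse cells. The part of cell type shares in the Lox value was not tested.

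The other genes of the collagen pathway were read in the same way. As background to the list counts, 4.52% of all measured genes in fibroblast-like cells were higher in the aged pool by 1.5-fold and 0.806% lower. In clusters 11, 12 and 14 the shares past 1.5-fold either way were 3.92%, 2.33% and 1.14%. In the list of other collagen folding and modification genes (16 genes: the partner subunit, prolyl 3-hydroxylases, chaperones and glycosyltransferases) 13 were measured in fibroblast-like cells, 1 was higher in the aged pool by 1.5-fold and 0 lower, with a median log2 ratio of 0.26. That 1 was Creb3l1, a transcription factor gene of secretory cells, at 76.7 CPM in the aged pool and 49.1 CPM in the young pool. Serpinh1, the chaperone gene Ppib and P4hb had 1223, 881 and 583 CPM in the aged pool and 1012, 876 and 563 CPM in the young pool. Within cluster 11, cluster 12 and cluster 14 the list had 0 genes past 1.5-fold of 14, 13 and 12 measured.

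Among the substrates, 4 of 7 measured fibrillar collagen genes were higher in aged fibroblast-like cells and 0 lower (median log2 ratio 0.59), with Col3a1 at 9446 CPM in the aged pool and 5005 CPM in the young pool and Col1a1 at 4229.6 and 2523 CPM. In cluster 11 and cluster 12 0 of 8 and 0 of 6 were past 1.5-fold, and in cluster 14 1 of 6 was, Col5a3, at 186 CPM in the aged pool and 122 CPM in the young pool. The enzyme UMIs per 100 fibrillar collagen UMIs were 9.18 in aged and 13.8 in young fibroblast-like cells. Within its clusters the pools were closer, with 39.3 in aged and 44.5 in young cells of cluster 14, 5.33 and 6.25 in cluster 12, 5.49 and 5.31 in cluster 18, and 12.1 and 13.3 in cluster 20, and cluster 14 held 48.7% of the aged and 64.3% of the young UMIs of the class. Basement membrane and network collagens had 3 of 6 measured genes higher there, and fibril-associated and beaded filament collagens 3 of 7, with 0 lower in both. In cluster 11, cluster 12 and cluster 14 both lists had 0 past 1.5-fold.

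The elastic fibre list, the other substrate of lysyl oxidases, had 4 of 12 measured genes higher in aged fibroblast-like cells and 0 lower (median log2 ratio 0.39). Fbln1, a fibulin, had 141 CPM in the aged pool and 72.2 CPM in the young pool, and the fibrillin gene Fbn2 had 40.9 and 21.7 CPM. In cluster 12 0 of 12 were past 1.5-fold, and Eln, which encodes elastin, had 359 CPM in the aged pool and 267 CPM in the young pool. Cluster 14 had 1.67 CPM of Eln in the aged pool and 1.87 CPM in the young pool, where Lox was at 242 and 215 CPM. In cluster 11 1 of 12 was past 1.5-fold, Ltbp4, which encodes a TGF-beta binding protein, at 23.05 CPM in the aged pool and 35.4 CPM in the young pool.

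Procollagen processing and fibril assembly genes had 2 of 9 measured members higher in aged fibroblast-like cells and 0 lower: the small proteoglycan gene Lum (852 CPM aged, 518 CPM young) and the procollagen N-propeptidase gene Adamts2 (255 CPM aged, 162 CPM young). Within clusters 12 and 14 0 of 8 and 0 of 9 were past 1.5-fold. In cluster 11 0 of 9 were higher and 1 was lower. The part of the make-up of the class in the Lum and Adamts2 values was not tested. The hypoxia list had 1 of 16 higher in aged fibroblast-like cells and 0 lower (median log2 ratio -0.25). That 1 was the vasodilator peptide gene Adm at 239 CPM in the aged pool and 140.0 CPM in the young pool. In macrophage-like cells 0 of 17 were higher and 3 lower (median -0.39), where 0.903% of all measured genes were lower. P4ha1 was at 112 CPM in the aged pool and 125 CPM in the young pool. Neutrophil markers in the same cells summed to 3617 CPM in the aged pool and 7001 CPM in the young pool. The make-up of the class differed too. Cluster 13, where P4ha1 was higher than in cluster 9, held 200 of the 587 aged and 250 of the 536 young macrophage-like cells. The part of neutrophil markers and of make-up in these values was not tested. Contractile myofibroblast genes had 6 of 11 higher in aged cells of cluster 14 and 0 lower, 4 of 10 lower in cluster 12 and 0 higher, and 0 of 11 past 1.5-fold in cluster 11. Of all measured genes 0.729% were higher in cluster 14 and 1.47% lower in cluster 12.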

How the data were processed

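Gene expression was measured by droplet single-cell RNA sequencing (10x 3' assay) in 1 library per group. The deposited matrices hold UMI counts per gene and barcode that the authors made with Cell Ranger 6.0.0, per the submitters' processing notes, over human and mouse genes together. Counting against both genomes splits barcodes by species but leaves free RNA in them.

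Barcodes with at least 90% mouse gene UMIs, 500 UMIs, 300 genes and at most 20% mitochondrial UMIs were kept, and 1166 aged and 1045 young barcodes with a Scrublet score above 0.25 were removed as likely doublets. The remaining counts (71000331 UMIs aged, 65137677 young) were scaled to 10000 per cell and clustered with scanpy 1.11.5 under Python 3.11.15 (2000 variable genes, 30 components, 15 neighbours, Leiden resolution 1), leaving out 54 genes, namely the 10 enzymes and 44 collagen genes. A cluster was named from 20 marker sets when at least 3 markers of a set were found, unless a leading gene spoke against the name. Levels are summed UMIs per 1000000, with exact Poisson intervals, exact conditional binomial intervals for ratios and exact binomial intervals for shares, all at 95%. The genes named besides the 10 enzymes are the 3 nearest in pattern to each and members of 8 lists (116 genes), chiefly those past 1.5-fold and the highest. No sequence or genome position is given, as no mouse reference was used here.

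The alternatives were other filters, scalings (edgeR 4.0.16, DESeq2 1.42.0, for factors only), weights and clusterings. The enzymes, gene lists and markers were chosen with earlier results of these data known, and the naming rule and doublet score were set after the data were seen. The antibody libraries were not used.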

Additional observations from a re-analysis of the deposited data

Results flagged for a closer look

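Loxl2, which cross-links collagen IV, differed between the pools in opposite directions in a pair of fibroblast-marker clusters. Its level in the aged pool over that in the young pool was 1.34 in cluster 14 and 0.701 in cluster 11. With 1 library per pool this difference between the clusters was not tested. It rests on the clusters as drawn: with all variable genes, and at Leiden resolution 0.5, 49.8% and 64.4% of the cells of cluster 11 fell into the cluster that took most of cluster 14, with 253.5 and 258 CPM of Loxl2 over both pools.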

How the results depend on the processing

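No paired analysis was possible because each group is 1 library and the results come from no test. With no minimum level, 4 of 9 enzymes were past 1.5-fold in macrophage-like cells, where 5368 of 16670 genes were. In endothelial-like cells 4 of 10 enzymes were, beside 5562 of 15035 genes. In both classes these were Lox, Loxl1 and Loxl2, higher in the aged pool, and Plod2, lower there, all at low UMI counts. With so few members these counts do not stand out from the shares of all genes. The other alternatives left 0 enzymes past 1.5-fold in these classes and in fibroblast-like cells. The correlation of the summed enzymes with fibrillar collagen was 0.861 and became 0.758 in the young pool clustered alone and 0.683 without the fibroblast-like clusters. Of 90 alternative log2 ratios in fibroblast-like cells 80 moved by no more than counting error, and the sign changed for P4ha2 alone, which ranged from -0.05 to 0.12. Fibroblast-like genes past 1.5-fold numbered 317, and 71 at 2-fold. Macrophage-like ones numbered 85, against 145 with every cell weighted equally and 25 at 2-fold. Endothelial-like ones numbered 242 and 69 at 2-fold. Of 200 alternative cluster levels 100 moved by more than counting error, and 13 moved by over 1.5-fold, 11 of them in cluster 11. Of 240 alternative shares of cells with a UMI, which include other thinning depths, 87 moved by more than counting error. For cluster levels, shares and the correlation, the alternatives with 1 pool clustered alone were set against values over both pools. Differences between the pools therefore enter those comparisons along with the clustering. Depth limits the low enzymes outside the stroma: 3 UMIs of Lox were found in young endothelial-like cells.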

Other observations

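The human tumour cells of the same libraries were read for the same 10 genes (2436 aged and 2494 young barcodes), with levels per 1000000 human UMIs. PLOD2 had 177 CPM in the aged pool and 186 CPM in the young pool, P4HA1 157 and 151 CPM, and LOX 72.9 and 70.7 CPM. LOXL1, highest among mouse cells in cluster 12, had 5.08 CPM in aged and 5.82 CPM in young tumour cells. None of the 10 was past 1.5-fold between the pools, with no minimum level set. The share of all human genes past that fold was not computed, so this count has no background to be read against. The ratio farthest from 1 was that of LOXL2, with 19.003 CPM in the aged pool and 24.5 CPM in the young pool (0.777, 0.728 to 0.828).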
